A study of Mus musculus with 2 samples.

Results

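Collagens, laminins and integrins are the structural proteins of the extracellular matrix and the receptors with which cells hold it. They were taken here as every gene whose symbol is Col followed by a number, the letter a and a number, Lam followed by a, b or c and a number, or begins with Itga or Itgb. That rule found 86 of the 31053 genes in the files: 44 collagen genes, 11 laminin genes and 31 integrin symbols. Of these, 68 had at least 20 unique molecular identifiers (UMIs, each a tag for 1 captured RNA molecule) over both libraries: 35 collagens, 9 laminins and 24 integrin symbols. Another 15 had 1 to 19 UMIs, and Col10a1, Col19a1 and Itgb2l had 0. Among the 24 integrin symbols, 21 are integrin subunits. The other 3 were taken by spelling alone: Itgb1bp1 and Itgb3bp are named as binding proteins of integrin subunits, and Itgbl1 as a protein with integrin-beta-like repeats.

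The series holds 2 single-cell libraries of mouse mammary cells, and its purpose per the labels was to find expression changes after loss of the microRNAs miR-200c and miR-141. The cKO library came from K8-CreERT2;miR-200c/141-flox/flox mice, in which the keratin 8 promoter, active in luminal cells, drives a Cre recombinase that tamoxifen switches on. The Ctrl library came from miR-200c/141-flox/flox mice without that Cre. Both groups therefore carried the floxed alleles on a C57BL/6 background, and per the labels tamoxifen was given at 8 to 10 weeks of age and glands were taken 4 weeks later. The labels also state an age of 8 weeks, and how many mice went into a library is not given in the sources used here. Mammary cells were enriched by fluorescence-activated sorting and captured with 10x Chromium 3′ v2 chemistry. With 1 library per group there is no replicate and no test: every interval below is a 95% interval that covers counting error only, and a difference between cKO and Ctrl is a difference between these libraries.

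The mammary gland is a tree of double-layered ducts. The inner luminal layer holds hormone-sensing cells and luminal progenitors, and the outer basal (myoepithelial) layer sits on a basement membrane. That membrane is a sheet in which a network of collagen IV and a network of laminin trimers, each made of an alpha, a beta and a gamma chain, are joined by linker proteins. Integrins are pairs of an alpha and a beta subunit that span the cell membrane, and the pair alpha 6 and beta 4 holds basal cells to laminin in anchoring structures called hemidesmosomes. Fibrillar collagens I, III and V form the fibres of the stroma between the ducts and are made mainly by fibroblasts. Mature miR-200c and miR-141 repress messenger RNAs that carry a match to their seed, bases 2 to 8, and are best known in epithelia as repressors of mesenchymal transcription factors.

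After filtering on detected genes and mitochondrial share and removing called doublets, 5438 cKO cells and 3389 Ctrl cells were used, with medians of 13905 UMIs and 19799 UMIs per cell. The libraries shared 6 cell barcodes. Cells were assigned to classes by marker genes, none of which is a member of the set, so that the names are rebuilt ones. The basal class held 980 cKO and 1075 Ctrl cells, the luminal class 3861 and 2168, the endothelial class 508 and 110, and the fibroblast class 32 and 10. Defining markers followed the names in both libraries. Krt14, a basal keratin, had 6859 CPM (UMIs per 1000000 UMIs summed over a class in a library) in cKO basal cells and 7093 CPM in Ctrl basal cells, against 51.5 CPM in cKO luminal and 54.5 CPM in Ctrl luminal cells. Krt8, the luminal keratin, had 4217 CPM in cKO luminal and 4862 CPM in Ctrl luminal cells. Cdh5, an endothelial cadherin, had 380 CPM in cKO and 444 CPM in Ctrl endothelial cells, and Dcn, a fibroblast proteoglycan, had 6644 CPM in cKO and 6594 CPM in Ctrl fibroblast-gated cells. Ptprc, the pan-leukocyte marker, had 0 UMIs in basal and fibroblast-gated cells of both libraries. Transcripts of other classes were present in epithelial cells at levels that differed between the libraries. In basal cells the luminal list, 10 genes, summed to 1790 CPM in cKO and 1287 CPM in Ctrl, and Krt8 had 613 and 712 CPM. Only 348 of 980 cKO and 295 of 1075 Ctrl basal cells held fewer than 3 detected markers of every other class. The fibroblast list, 10 genes, summed to 569 CPM in cKO and 895 CPM in Ctrl basal cells and to 665 and 972 CPM in luminal cells, with 9 of 10 detected in basal cells of both libraries and in cKO luminal cells and 10 of 10 in Ctrl luminal cells. Dpt was at 0 in basal cells of both libraries and Lum at 0 in cKO luminal cells, while Dcn had 197 CPM in cKO and 215 CPM in Ctrl luminal cells. The part of these transcripts in the collagen values below was not tested. The endothelial list, also 10 genes, summed to 38.6 CPM in cKO and 8.83 CPM in Ctrl basal cells and to 35.5 and 17.5 CPM in luminal cells, with Tie1 at 0 in Ctrl basal cells and every other marker detected. Within it, Cdh5 had 4.02 CPM in cKO basal cells, against 0.0788 CPM in Ctrl basal cells, and 2.63 CPM in cKO luminal cells, against 0.130 CPM in Ctrl luminal cells.

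The mature strands of the deleted microRNAs are shown because their seeds set which sites were looked for in the members. They are RefSeq sequences on build GRCm38.p6, minus strand, at chr6:124718324-124718346 for miR-200c-3p and chr6:124717917-124717938 for miR-141-3p, with the seed in capitals.
miR-200c-3p: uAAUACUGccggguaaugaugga
miR-141-3p: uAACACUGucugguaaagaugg
The seeds differ in the third of their 7 bases. Their matches in a messenger RNA read CAGTATT and CAGTGTT. The 27-base windows that follow come from the longest annotated 3′ untranslated region of 4 members that results below turn on, with the match in capitals. Lamc1 and Itgav are shown because both were lower in cKO luminal cells, Col4a4 because it was higher there, and Itga2 because its luminal level was close in both libraries.
Lamc1, miR-200c match, bases 2508 to 2514 of 2551: ttaaaaagaaaaCAGTATTttatttat
Lamc1, miR-141 match, bases 1109 to 1115 of 2551: aacacccgctctCAGTGTTtctcaagg
Itgav, miR-200c match, bases 654 to 660 of 3581: ttaacaatggtaCAGTATTtttatatg
Col4a4, miR-141 match, bases 473 to 479 of 4708: gtagagatttttCAGTGTTtcaaaatg
Itga2, miR-200c match, bases 2174 to 2180 of 3404: ctttgagcttagCAGTATTgtagtatt
Itga2, miR-141 match, bases 2660 to 2666 of 3404: ctttctagttagCAGTGTTatttttac
Of the 59 members with at least 20 UMIs in luminal cells, 9 (15.3%) held a miR-200c match, 8 (13.6%) a miR-141 match and 14 (23.7%) either. Over the 13511 genes with at least 20 luminal UMIs and an annotated 3′ untranslated region, those shares were 14.7%, 20.2% and 29.1%, with a median region length of 1122 bases against 1110 bases in the members. A match describes the letters in that region and is not a measured site.

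Basal and fibroblast-gated cells were the classes in which most members with a clear peak stood highest. A class was counted as a member's peak when its CPM was at least 2-fold above that of the next class in both libraries. Basal cells were the peak for 9 of the 68 members: Col16a1, Col17a1, Col4a6, Col9a1, Col9a2, Col9a3, Itga3, Lama3 and Lamb3, beside 3.01% of all 15672 genes with at least 20 UMIs. The Col9a1 peak is not shown against fibroblast-gated cells, which had 0 UMIs of it. The interval of their ratio to basal cells reached 22.1 in cKO and 4.69 in Ctrl. For Col4a6 that interval reached 1.43 in Ctrl, where fibroblast-gated cells had 2 UMIs. Fibroblast-gated cells were the peak for 8 (Col1a1, Col1a2, Col3a1, Col5a1, Col5a2, Col6a1, Col6a2 and Col6a3), beside 1.52% of all genes. Without the fibroblast-gated cell of each library with the most Col1a1 UMIs they were the peak for 7, since Col5a1 lost its peak. Luminal cells were the peak for Itgam and Itgb6, beside 10.5% of all genes, and for no collagen or laminin. The Itgam peak is not shown in Ctrl, where luminal cells had 6 UMIs (0.0778 CPM) and 3 UMIs would make 0.237 CPM in basal cells, which had 0. Nor is it shown against fibroblast-gated cells, which had 0 Itgam UMIs. The interval of their ratio to luminal cells reached 26.2 in cKO and 395 in Ctrl. Endothelial cells were the peak for Col15a1 and Itgb3, beside 4.72% of all genes. The highest class was the same in both libraries for 46 of 68 members, beside 63.5% of all genes.

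**Figure D1:**
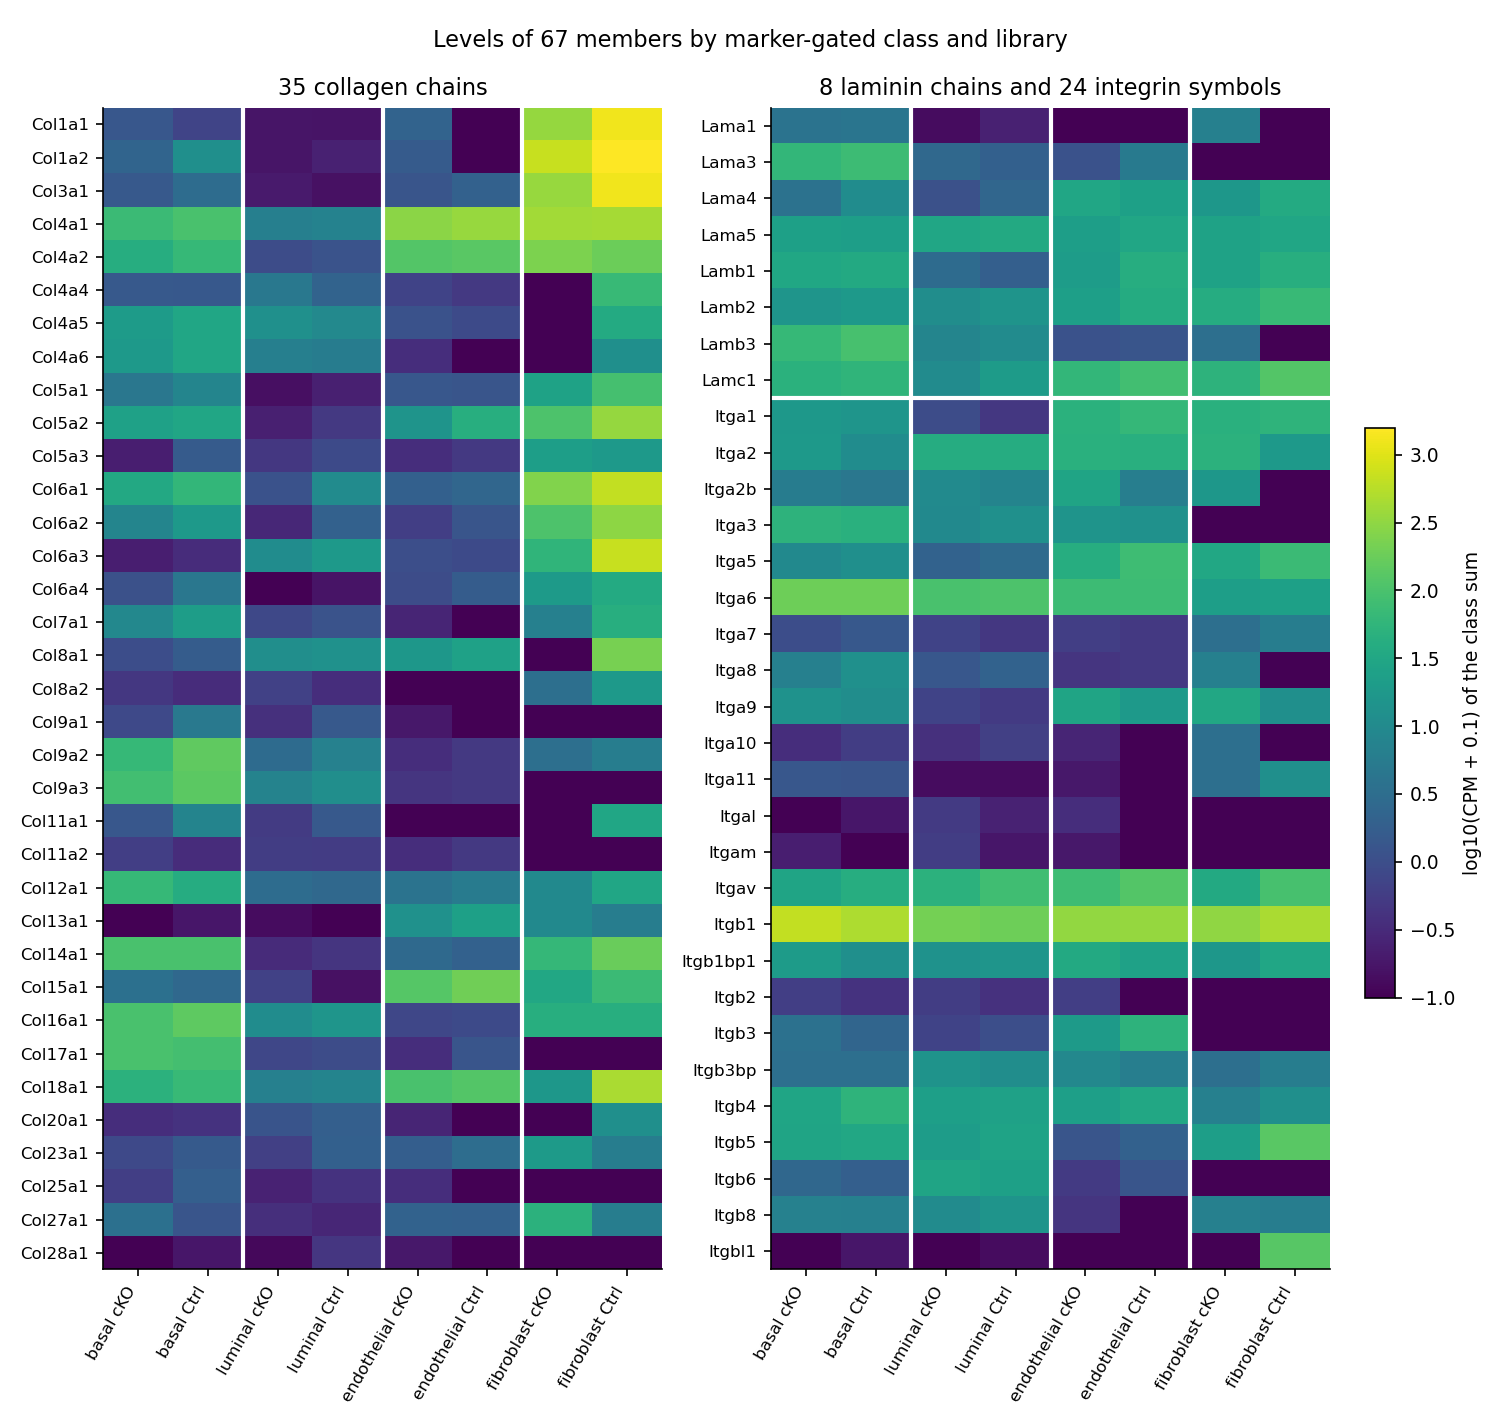
Level of 67 of the 68 members, as the log10 of CPM + 0.1, in basal, luminal, endothelial and fibroblast-gated cells, with cKO left of Ctrl in each class and brighter colours for higher levels. Fibrillar collagens are brightest in fibroblast-gated cells, Col17a1, Lama3 and Lamb3 in basal cells, Itgb6 in luminal cells and Col15a1 in endothelial cells.

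Some members separated the classes by large factors. Col14a1, a collagen that binds the surface of fibrils, was 446-fold higher in basal than in luminal cells in cKO and 284-fold higher in Ctrl. Col17a1, the membrane-spanning collagen of hemidesmosomes, was 144-fold higher in basal than in luminal cells in cKO and 106-fold higher in Ctrl. In the other direction, Col6a3, the long chain of collagen VI, was 86.3-fold higher in luminal than in basal cells in cKO and 76.8-fold higher in Ctrl. Itgb6, the beta subunit of an epithelial integrin that activates latent TGF-beta, was 11.96-fold higher in luminal than in basal cells in cKO and 13.8-fold higher in Ctrl. Itgb1, the common beta subunit, was 3.10-fold higher in basal than in luminal cells in cKO and 2.61-fold higher in Ctrl.

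Between the libraries, collagens were the family with the most members lower in cKO, in both epithelial layers. In basal cells, 56 members had at least 20 UMIs over both libraries. Of these, 22 (39.3%) were at least 1.5-fold lower in cKO, beside 8.75% of all 11286 genes, and 5 (8.93%) at least 1.5-fold higher, beside 9.81%. The median log2 ratio of cKO to Ctrl was −0.34 over the members, against 0.04 over all genes. By family, 18 of 28 basal collagens were lower and 2 higher, 1 of 9 laminins was lower and 0 higher, and 3 of 19 integrin symbols were lower and 3 higher. In luminal cells, 21 of 59 members (35.6%) were lower in cKO, beside 16.2% of all 14802 genes, and 10 (16.9%) higher, beside 12.8%. The median log2 ratio of luminal members was −0.28, against −0.12 over all genes. There, 15 of 29 collagens were lower and 4 higher, 2 of 8 laminins were lower and 1 higher, and 4 of 22 integrin symbols were lower and 5 higher. In endothelial cells, 11 of 33 members (33.3%) were lower in cKO, beside 9.97% of all 10809 genes, and 3 (9.09%) higher, beside 19.1%. Their median log2 ratio was −0.38, against 0.08 over all genes. Thinning every cell to 1000 UMIs left 33 basal members with enough UMIs, of which 6 were lower, beside 9.45% of all genes in that setting, and moved their median to 0.01, against 0.05 over all genes.

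**Figure D2:**
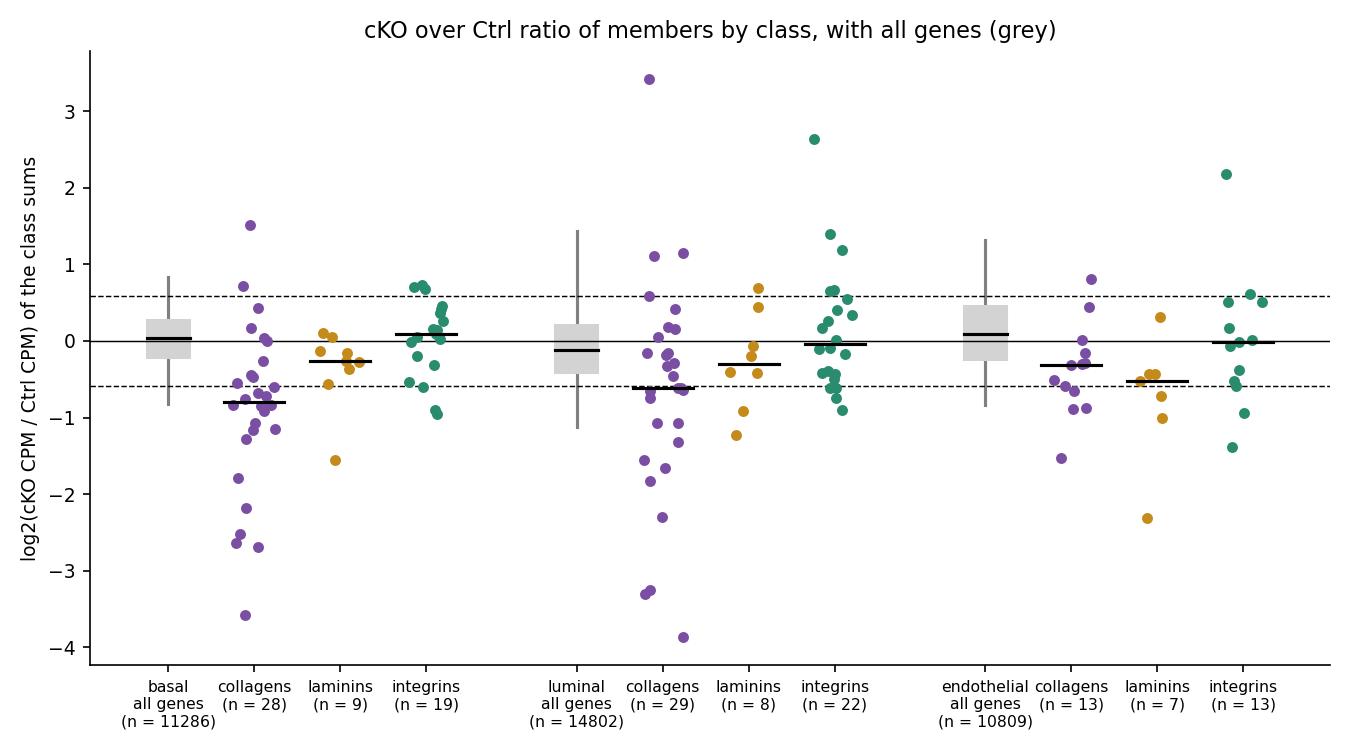
Log2 ratio of cKO to Ctrl CPM for each member with at least 20 UMIs in basal, luminal and endothelial cells, 1 point per gene by family, with black bars at the medians, dashed lines at 1.5-fold and, in grey, all genes (box for the quartiles, line for the 5th to 95th percentile). In basal cells 18 of 28 collagens lie below the lower dashed line, against 1 of 9 laminins.

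The epithelial layers shared part of this list. Of the 50 members measured in both, 12 were at least 1.5-fold lower in cKO in basal and in luminal cells: Col5a3, Col6a1, Col6a2, Col7a1, Col9a1, Col9a2, Col9a3, Col11a1, Col23a1, Col25a1, Itga8 and Lama4. Over all 11057 genes measured in both layers, 343 (3.10%) were lower in both. Col27a1 was the 1 member higher in both, beside 2.48% of all genes. Col23a1, a membrane-spanning collagen, was the 1 of 31 members lower in basal, luminal and endothelial cells alike, beside 0.901% of all genes measured in all 3 classes. Several of these rest on few UMIs or 1 cell. Basal Col5a3 had 1 UMI in cKO and 19 UMIs in Ctrl, and without the cell of each library with the most of its UMIs it had 0 in both. Endothelial Col23a1 had 20 UMIs in cKO and 8 UMIs in Ctrl, 1.83-fold lower, and was 1.34-fold lower without such cells. In addition, basal Col23a1 had 6 UMIs in cKO and 18 UMIs in Ctrl, and its interval of 0.716-fold to 5.79-fold lower spans no difference. Col25a1, a membrane-spanning collagen, had 4 UMIs in cKO and 22 UMIs in Ctrl basal cells, and luminal Col27a1, higher in cKO, had 22 UMIs in cKO and 14 UMIs in Ctrl.

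Collagen VI had the widest gap between the libraries among members with at least 100 luminal UMIs. It is a beaded filament that lies close to basement membranes and is built from an alpha 1, an alpha 2 and an alpha 3 (or related) chain. Col6a1 (ENSMUSG00000001119, GRCm38 chromosome 10, 76708792 to 76726168, minus strand) had 85 UMIs in 3861 cKO luminal cells and 803 UMIs in 2168 Ctrl luminal cells. That is 1.05 CPM in cKO and 10.4 CPM in Ctrl, 9.89-fold lower in cKO (7.90 to 12.5). At least 1 UMI was seen in 35 cKO luminal cells, against 337 Ctrl luminal cells. No single cell carried this: the luminal cell with the most Col6a1 UMIs held 15 in cKO and 100 in Ctrl, and without these cells the level was 10.5-fold lower in cKO. Luminal cells had a median of 16372 UMIs in cKO and 29214 UMIs in Ctrl. Cells were therefore also thinned to 1000 UMIs each, which left out 7 cKO and 2 Ctrl luminal cells. A Col6a1 UMI then remained in 4 of 3854 cKO cells (0.104%, exact Clopper-Pearson interval 0.0283 to 0.266) and in 14 of 2166 Ctrl cells (0.646%, 0.354 to 1.08), whereas the unthinned shares were 0.907% in cKO and 15.5% in Ctrl. In endothelial cells, used here as the class that should hold little of this gene, the thinned shares were 0.394% in cKO and 0.917% in Ctrl, so both thinned luminal shares lay below that background and are not read further. The endothelial level was 1.88 CPM in cKO and 2.34 CPM in Ctrl, above the luminal level of cKO and below the luminal level of Ctrl.

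The other collagen VI chains went the same way by different amounts. Col6a2 had 16 UMIs in cKO and 146 UMIs in Ctrl luminal cells, 0.198 and 1.89 CPM, 9.55-fold lower in cKO (5.69 to 17.2). Col6a3 had 876 UMIs in cKO and 1402 UMIs in Ctrl luminal cells, 10.8 and 18.2 CPM, 1.68-fold lower in cKO (1.54 to 1.82). The ratio of Col6a3 to Col6a1 UMIs in luminal cells was therefore 10.3 in cKO and 1.75 in Ctrl. Tags were counted at the 3′ end and such a ratio is not a chain ratio, so it is read only across libraries and classes. In basal cells Col6a1 had 33.9 CPM in cKO and 60.7 CPM in Ctrl, 1.79-fold lower in cKO (1.56 to 2.06), and Col6a2 had 8.04 and 17.8 CPM, 2.22-fold lower (1.67 to 2.97). Basal cells held almost no Col6a3, with 1 UMI in cKO and 3 UMIs in Ctrl. Thus the alpha 1 and alpha 2 chains were lower in cKO in both layers, while the alpha 3 chain was nearly absent from basal cells.

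Collagen IX stood out in the basal layer. It is best known from cartilage, where it decorates fibrils of collagen II, and Col2a1, the gene of collagen II, was among the members with 1 to 19 UMIs. Col9a2 (ENSMUSG00000028626, chromosome 4, 121039385 to 121055322, plus strand) had 523 UMIs in cKO and 1860 UMIs in Ctrl basal cells, 65.7 and 147 CPM, 2.23-fold lower in cKO (2.02 to 2.46). Its partner Col9a3 had 681 UMIs in cKO and 1788 UMIs in Ctrl basal cells, 85.6 and 141 CPM, 1.65-fold lower (1.51 to 1.80). Col9a1 was sparse, with 6 UMIs in cKO and 62 UMIs in Ctrl, 6.48-fold lower (2.82 to 18.3). All 3 chains were also lower in cKO luminal cells, Col9a1 by 4.91-fold (3.11 to 8.08), Col9a2 by 2.51-fold (2.14 to 2.94) and Col9a3 by 1.56-fold. After thinning to 1000 UMIs, a Col9a2 UMI was found in 6.54% of cKO basal cells (5.08 to 8.28) and 14.2% of Ctrl basal cells (12.2 to 16.5), against 38.1% and 74.1% unthinned. The thinned endothelial shares were 0.197% in cKO and 0 of 109 cells in Ctrl, which allows a share of up to 2.75%. Col11a1, a chain of the fibril-nucleating collagen XI that often accompanies collagen IX, had 10 UMIs in cKO and 99 UMIs in Ctrl basal cells, 6.21-fold lower (3.24 to 13.4), and was 3.17-fold lower in cKO luminal cells.

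**Figure D3:**
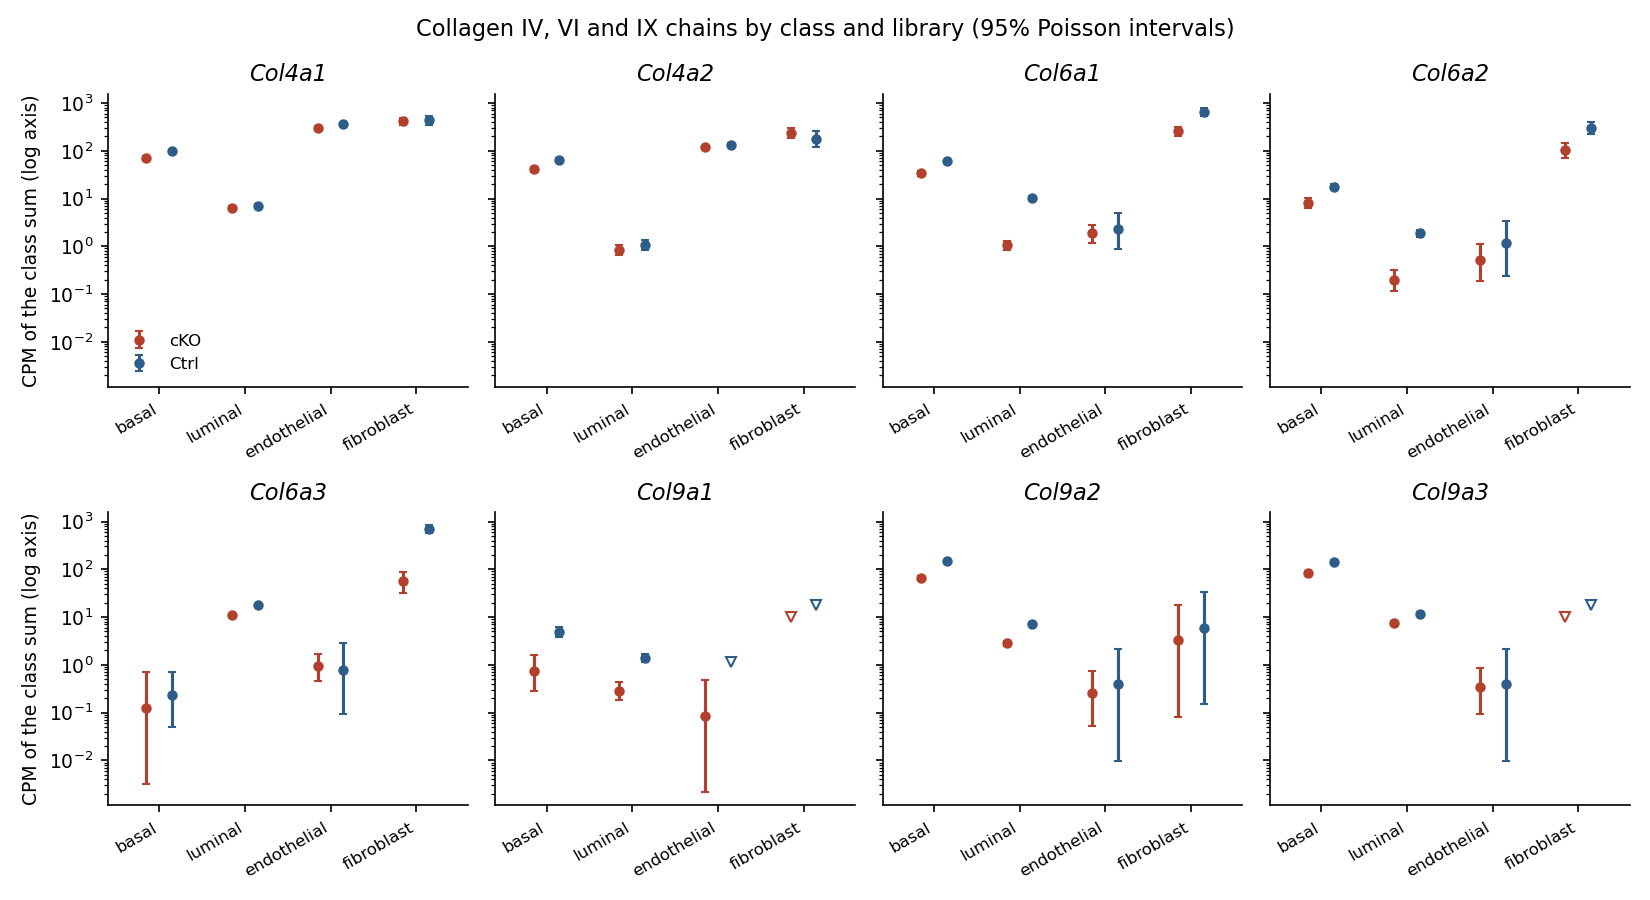
Level (CPM, log axis) of collagen IV, VI and IX genes in each class, with cKO (red) left of Ctrl (blue), 95% Poisson counting intervals as bars and open triangles at the level of 3 UMIs where a gene had 0. In luminal cells Col6a1 is 9.89-fold lower and Col6a2 9.55-fold lower in cKO, while luminal Col4a1 sits at 6.36 CPM in cKO and 7.08 CPM in Ctrl.

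Collagen IV, the network-forming collagen of every basement membrane, differed less. The trimer common to all basement membranes has alpha 1 and alpha 2 chains, whose genes lie head to head. Their RefSeq windows, 250 bases before to 50 after each start, are shown because both genes share this stretch and both had lower basal levels in cKO. Capitals mark GGGCGG and CCAAT or their reverse complements.
Col4a1, GRCm38.p6, minus strand, chr8:11312777-11313076: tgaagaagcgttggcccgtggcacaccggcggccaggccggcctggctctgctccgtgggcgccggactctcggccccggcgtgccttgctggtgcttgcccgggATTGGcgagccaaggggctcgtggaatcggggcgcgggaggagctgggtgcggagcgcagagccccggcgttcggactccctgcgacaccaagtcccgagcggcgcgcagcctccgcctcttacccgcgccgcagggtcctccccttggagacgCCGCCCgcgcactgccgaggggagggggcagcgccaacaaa
Col4a2, GRCm38.p6, plus strand, chr8:11312555-11312854: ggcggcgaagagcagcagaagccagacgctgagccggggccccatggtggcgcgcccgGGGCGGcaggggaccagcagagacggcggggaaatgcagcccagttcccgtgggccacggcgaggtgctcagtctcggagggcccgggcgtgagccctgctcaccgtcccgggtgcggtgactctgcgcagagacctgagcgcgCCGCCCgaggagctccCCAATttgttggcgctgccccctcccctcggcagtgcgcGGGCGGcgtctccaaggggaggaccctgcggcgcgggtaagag
The windows share 78 bases, and the annotated starts lie 21 bases apart. Read on both strands, the Col4a1 window held GGGCGG 1 time and CCAAT 1 time, and the Col4a2 window held them 3 times and 1 time; GGGCGG was in 35.7% and CCAAT in 37.4% of all 32851 windows of that length. Neither window held TATAAA, found in 13.6% of windows, or CACCTG, found in 20.2%.

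In basal cells Col4a1 (ENSMUSG00000031502) had 573 UMIs in cKO and 1246 UMIs in Ctrl, 72.0 and 98.2 CPM, 1.36-fold lower in cKO (1.23 to 1.51). Col4a2 (ENSMUSG00000031503) had 325 UMIs in cKO and 832 UMIs in Ctrl basal cells, 40.9 and 65.6 CPM, 1.61-fold lower (1.41 to 1.83). Luminal cells held far less of both, with Col4a1 at 6.36 CPM in cKO and 7.08 CPM in Ctrl and Col4a2 at 0.854 and 1.08 CPM. The UMI ratio of Col4a1 to Col4a2 depended on the class more than on the library. It was 1.76 in cKO and 1.498 in Ctrl basal cells, 2.47 in cKO and 2.71 in Ctrl endothelial cells, and 7.45 (5.78 to 9.72) in cKO and 6.58 (5.21 to 8.39) in Ctrl luminal cells. Endothelial cells had the highest Col4a1 level outside the fibroblast class, 293 CPM in cKO and 358 CPM in Ctrl.

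The minor collagen IV chains split by layer. Col4a5 and Col4a6, which pair in a second type of collagen IV network, had 20.2 and 18.2 CPM in cKO basal cells, against 30.7 CPM each in Ctrl basal cells, and were 1.52-fold and 1.69-fold lower in cKO. Their luminal levels were 12.7 CPM in cKO and 9.51 CPM in Ctrl for Col4a5, and 6.49 and 5.81 CPM for Col4a6. Col4a4, best known from the glomerular basement membrane of the kidney, was higher in cKO luminal cells: 378 UMIs in cKO and 163 UMIs in Ctrl, 4.68 and 2.11 CPM, 2.22-fold higher (1.84 to 2.68). Its 3′ untranslated region carries the miR-141 match printed above. Of the other luminal members with a match, Itga1 was also past 1.5-fold higher in cKO luminal cells. Lamc1, Itgav, Col9a2, Col11a1, Col25a1 and Itga10, which carry matches too, were past 1.5-fold lower there, and the rest lay within 1.5-fold. A link between matches and levels was not tested.

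Collagens of the anchoring complex and of fibril surfaces were mixed. Col7a1, which forms the anchoring fibrils beneath epithelia, had 71 UMIs in cKO and 276 UMIs in Ctrl basal cells, 8.92 and 21.8 CPM, 2.44-fold lower in cKO (1.87 to 3.21). Col17a1, its hemidesmosomal neighbour, had 98.3 CPM in cKO and 87.6 CPM in Ctrl basal cells, a difference under 1.5-fold. Col14a1 had 99.4 CPM in both libraries. Col16a1, a fibril-associated collagen, had 100 CPM in cKO and 146 CPM in Ctrl basal cells, 1.46-fold lower in cKO. Col12a1, a fibril-associated collagen found in tissues under load, went the other way, with 523 UMIs in cKO and 505 UMIs in Ctrl basal cells, 65.7 and 39.8 CPM, 1.65-fold higher in cKO (1.46 to 1.87). Col23a1 had 42 UMIs in cKO and 142 UMIs in Ctrl luminal cells, 0.520 and 1.84 CPM, 3.54-fold lower (2.49 to 5.12). Col8a1, a short-chain network collagen, had 11.7 CPM in cKO and 13.0 CPM in Ctrl luminal cells, and 16.5 and 24.9 CPM in endothelial cells. Col15a1, an endothelial basement membrane collagen, had 45 UMIs in cKO and 4 UMIs in Ctrl luminal cells, 10.7-fold higher in cKO, beside the higher Cdh5 level in those cells given above; the part of endothelial transcripts in that value was not tested.

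The fibrillar collagens of the stroma were marker-like for the fibroblast class, which was too small for a ratio. The class also held pericyte markers: the summed pericyte list was at 983 CPM in cKO and 338 CPM in Ctrl, with 5 of 7 markers detected in cKO and 6 of 7 in Ctrl. Over 32 cKO cells and 10 Ctrl cells, Col1a1 had 340 CPM in cKO and 1266 CPM in Ctrl, Col1a2 had 696 and 1609 CPM, and Col3a1 had 353 and 1278 CPM. A single Ctrl cell held 188 of the 210 Ctrl Col1a1 UMIs, while the cKO cell with the most held 22 of 104. Without these cells, Col1a1 had 286 CPM in cKO and 159 CPM in Ctrl, Col1a2 had 680 and 563 CPM, and Col3a1 had 356 and 217 CPM, so the order of the libraries turned round for all 3. Col6a1 kept its order, with 223 CPM in cKO and 556 CPM in Ctrl without these cells. However, a different single Ctrl cell held 46 of the 77 Ctrl Col6a1 UMIs then left, so that order also rests largely on 1 cell. Fibroblast-gated Col6a3 had 55.5 CPM in cKO and 693 CPM in Ctrl, where 108 of 115 UMIs lay in the cell with the most Col1a1 UMIs. Without the top Col1a1 cell of each library the levels were 48.8 and 50.5 CPM. Col18a1 had 16.3 CPM in cKO and 458 CPM in Ctrl, where a single cell other than the top Col1a1 cell held 61 of 76 UMIs. In basal cells, Col1a2 had 17 UMIs in cKO and 156 UMIs in Ctrl, 5.76-fold lower in cKO, but 120 of the Ctrl UMIs (76.9%) came from 1 cell, and without the top cell of each library it was 1.51-fold lower.

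Lama3 and Lamb3 encode an alpha and a beta chain of the laminin that hemidesmosomes bind. In basal cells Lama3 had 471 UMIs in cKO and 967 UMIs in Ctrl, 59.2 and 76.2 CPM. Lamb3 had 64.2 CPM in cKO and 95.2 CPM in Ctrl, 1.48-fold lower in cKO (1.33 to 1.65). Both chains were thus within 1.5-fold between the libraries in this layer. In luminal cells Lama3 was sparse, at 2.51 CPM in cKO and 1.85 CPM in Ctrl, and Lamb3 had 7.97 and 10.6 CPM. Lama3 was 23.6-fold higher in basal than in luminal cells in cKO and 41.1-fold higher in Ctrl, and Lamb3 8.05-fold and 8.94-fold higher.

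Lamc1 (ENSMUSG00000026478, chromosome 1, 153218922 to 153332786, minus strand) encodes the gamma 1 chain of most other laminins. In luminal cells it had 858 UMIs in cKO and 1545 UMIs in Ctrl, 10.6 and 20.02 CPM, 1.88-fold lower in cKO (1.73 to 2.05). In basal cells it had 47.1 CPM in cKO and 56.6 CPM in Ctrl. Lamb1, a beta chain that pairs with gamma 1, went the other way in luminal cells, with 229 UMIs in cKO and 135 UMIs in Ctrl, 2.84 and 1.75 CPM, 1.62-fold higher in cKO (1.30 to 2.02). Lamb2, another beta chain, had 11.2 CPM in cKO and 14.8 CPM in Ctrl luminal cells. Lama5, the alpha chain of many epithelial basement membranes, had 24.3 CPM in cKO and 22.6 CPM in Ctrl basal cells, and 30.4 and 34.9 CPM in luminal cells. Lama4, the alpha chain of vascular basement membranes, had 30 UMIs in cKO and 140 UMIs in Ctrl basal cells, 3.77 and 11.04 CPM, 2.93-fold lower (log2 ratio −1.55, −2.17 to −0.97), and was 2.35-fold lower in cKO luminal cells. Lama1, Lama2 and Lamc3 were sparse, with 31 UMIs of Lama1 in cKO and 54 UMIs in Ctrl basal cells and fewer than 20 UMIs in all of Lama2 and Lamc3.

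Among integrins, the common beta subunit was higher in cKO basal cells by less than the 1.5-fold used for counting. Itgb1 (ENSMUSG00000025809, chromosome 8, 128685654 to 128733200, plus strand) had 5155 UMIs in cKO and 6142 UMIs in Ctrl basal cells, 648 and 484 CPM, 1.34-fold higher in cKO (1.29 to 1.39). Once cells had been thinned to 1000 UMIs, 47.8% of cKO basal cells (44.6 to 50.9) and 36.1% of Ctrl basal cells (33.2 to 39.1) held an Itgb1 UMI, against 94.3% and 92.4% unthinned. In luminal cells the thinned shares were 17.5% in cKO and 17.4% in Ctrl, with levels of 209 and 185 CPM. No class here lacks Itgb1: the thinned endothelial shares were 28.01% in cKO and 28.4% in Ctrl. The intervals of the basal shares did not overlap, but they cover only counting error over cells of 1 library per group. Without the cell of each library with the most of its UMIs, basal Itgb1 had a log2 ratio of 0.42. Over all basal genes the 75th percentile of that ratio was 0.27 and the 95th percentile 0.84.

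The hemidesmosome integrin was unevenly placed. Itga6 had 189 CPM in cKO and 185 CPM in Ctrl basal cells. Itgb4, its partner in hemidesmosomes, had 230 UMIs in cKO and 687 UMIs in Ctrl basal cells, 28.9 and 54.2 CPM, 1.87-fold lower in cKO (1.61 to 2.18). After thinning to 1000 UMIs, 3.17% of cKO basal cells (2.16 to 4.47) and 4.49% of Ctrl basal cells (3.33 to 5.91) held an Itgb4 UMI, with overlapping intervals. The UMI ratio of Itga6 to Itgb4 was 6.53 (5.68 to 7.54) in cKO and 3.42 (3.14 to 3.73) in Ctrl basal cells. In luminal cells that ratio was 4.22 in cKO and 4.25 in Ctrl. Of the anchoring genes named here, Itgb4 and Col7a1 were past 1.5-fold lower in cKO basal cells, while Itga6, Lama3, Lamb3 and Col17a1 lay within 1.5-fold.

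Alpha subunits that bind collagen, laminin or fibronectin differed by layer. Itga2, a collagen receptor subunit, had 142 UMIs in cKO and 139 UMIs in Ctrl basal cells, 17.8 and 10.96 CPM, 1.63-fold higher in cKO (1.28 to 2.07). Its luminal level was 40.5 CPM in cKO and 40.3 CPM in Ctrl. Itga3, a laminin receptor subunit, had 52.4 CPM in cKO and 47.1 CPM in Ctrl basal cells. Itga8, a subunit of a nephronectin and fibronectin receptor, had 52 UMIs in cKO and 160 UMIs in Ctrl basal cells, 1.93-fold lower in cKO. Itgb1bp1, which by name binds the beta 1 subunit, had 161 UMIs in cKO and 155 UMIs in Ctrl basal cells, 20.2 and 12.2 CPM, 1.66-fold higher (1.32 to 2.08). Itga5, the fibronectin receptor alpha subunit, had 9.93 CPM in cKO and 12.4 CPM in Ctrl basal cells.

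In luminal cells the alpha V subunit was the most abundant integrin past 1.5-fold. Itgav (ENSMUSG00000027087, chromosome 2, 83724397 to 83806916, plus strand) had 3969 UMIs in cKO and 6385 UMIs in Ctrl luminal cells, 49.1 and 82.7 CPM, 1.68-fold lower in cKO (1.62 to 1.75). After thinning, 5.06% of cKO and 8.26% of Ctrl luminal cells held an Itgav UMI. Of its beta partners, Itgb6, Itgb5 and Itgb8 lay within 1.5-fold. Itgb6 had 28.6 CPM in cKO and 23.9 CPM in Ctrl, Itgb5 had 20.6 and 27.0 CPM, and Itgb8 had 10.5 and 14.8 CPM. Itgb3, a sparser partner, was past 1.5-fold lower, with 48 UMIs in cKO and 70 UMIs in Ctrl luminal cells, 0.594 and 0.907 CPM. In basal cells Itgav had 28.7 CPM in cKO and 41.6 CPM in Ctrl, 1.45-fold lower. Itga1, a collagen receptor subunit, had 69 UMIs in cKO and 29 UMIs in Ctrl luminal cells, 2.27-fold higher, again in cells where Cdh5 was higher in cKO. The leukocyte subunits Itgal, Itgam and Itgb2 were all higher in cKO luminal cells on few UMIs, with 33, 39 and 38 UMIs in cKO and 12, 6 and 23 UMIs in Ctrl. For Itgb2 the counting intervals of the levels overlapped, at 0.333 to 0.646 CPM in cKO and 0.189 to 0.447 CPM in Ctrl. Ptprc, which marks the leukocytes these subunits are known from, had 1 UMI in cKO and 0 UMIs in Ctrl luminal cells. The whole immune list, 10 genes, summed to 11.7 CPM in cKO and 21.1 CPM in Ctrl luminal cells, with 10 and 9 genes detected. The part of leukocyte transcripts in the values of these subunits was not tested.

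The luminal kinds differed in which members set them apart from each other and in the gap between libraries. Hormone-sensing cells numbered 2150 in cKO and 1119 in Ctrl, 55.7% and 51.6% of luminal cells, and progenitors 1120 and 714, 29.0% and 32.9%. Members of each kind kept their place in both libraries: Itga2 was 2.32-fold higher in progenitors than in hormone-sensing cells in cKO and 2.98-fold higher in Ctrl, and Itgb8 was 4.05-fold and 2.62-fold higher. Col6a3 and Col8a1 belonged to the hormone-sensing side, with progenitor levels at 0.133 and 0.179 of the hormone-sensing level in cKO and 0.102 and 0.191 in Ctrl.

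The gap in Col6a1 was wider in hormone-sensing cells than in progenitors. Col6a1 had 22 UMIs in cKO and 417 UMIs in Ctrl hormone-sensing cells, 0.493 and 9.88 CPM, 20.1-fold lower in cKO (13.1 to 32.4). In progenitors it had 51 UMIs in cKO and 161 UMIs in Ctrl, 2.66 and 8.25 CPM, 3.10-fold lower (2.25 to 4.34). Those counting intervals do not overlap. Luminal cells of neither kind had 12 UMIs in cKO and 225 UMIs in Ctrl, 0.710 and 14.6 CPM, 20.5-fold lower (11.5 to 40.3), so the gap was narrowest in progenitors. Lamc1 followed the same order, at 10.5 CPM in cKO and 23.9 CPM in Ctrl hormone-sensing cells, 2.27-fold lower (2.03 to 2.54), and at 9.96 and 13.0 CPM in progenitors, 1.31-fold lower. Lamb1 and Col4a4 were higher in cKO hormone-sensing cells, by 2.32-fold (1.66 to 3.30) and 3.03-fold (2.34 to 3.95), whereas in progenitors Lamb1 had 47 UMIs in cKO and 59 UMIs in Ctrl and Col4a4 had 62 and 49 UMIs. Itgav was lower by a similar factor in both kinds, 1.75-fold in hormone-sensing cells and 1.66-fold in progenitors. Lamb3 was lower in cKO progenitors, with 120 UMIs in cKO and 242 UMIs in Ctrl, 1.98-fold, and at 8.57 CPM in cKO and 10.2 CPM in Ctrl hormone-sensing cells. Counted over all measured members, 17 of 55 were lower in cKO hormone-sensing cells, beside 18.8% of all genes, and 13 higher, beside 13.7%. In cKO progenitors 14 of 49 were lower, beside 13.1% of all genes, and 2 higher, beside 8.06%. The difference between the kinds was not tested.

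**Figure D4:**
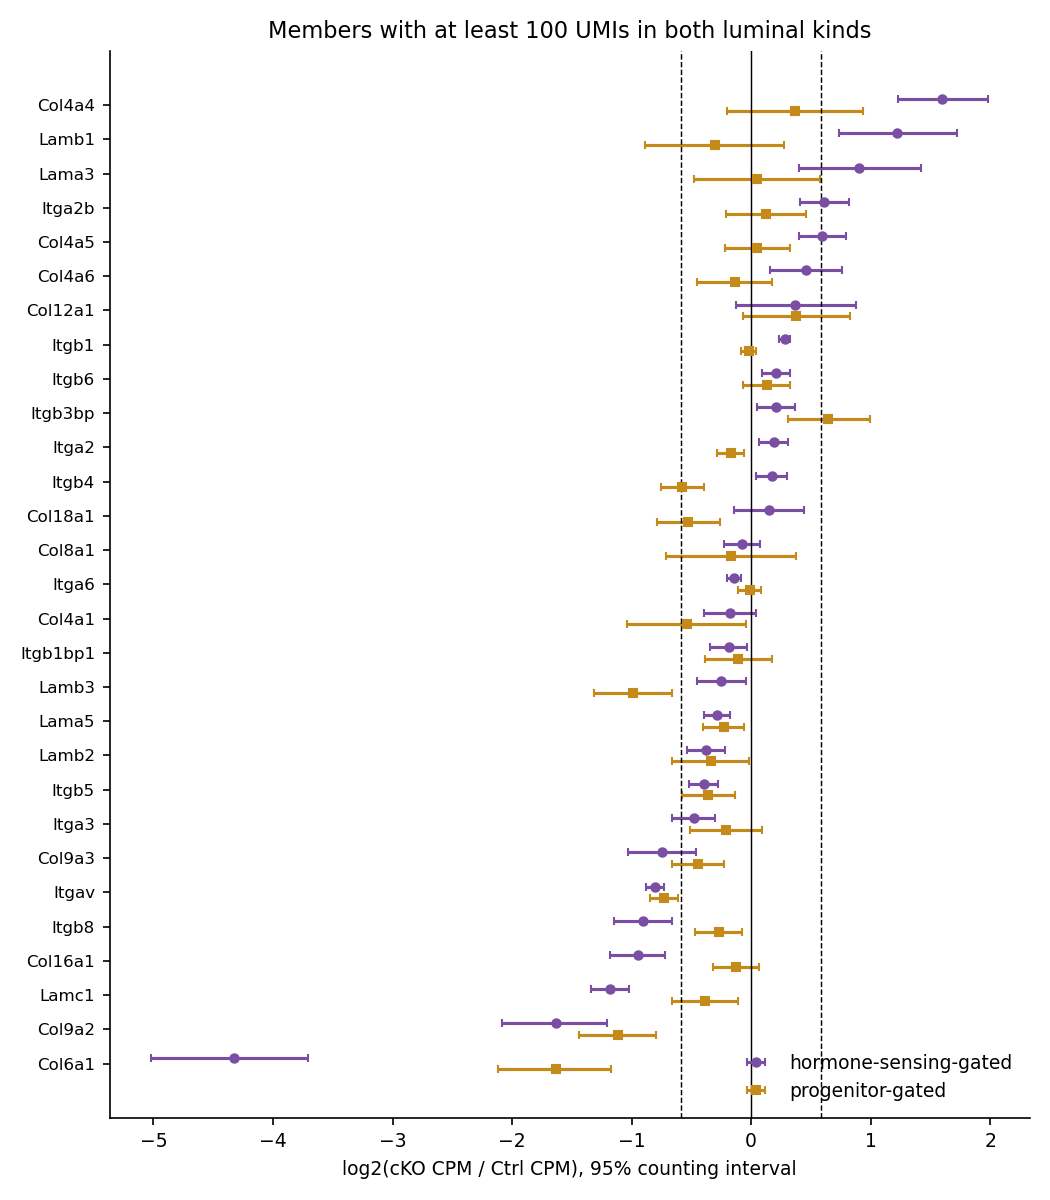
Log2 ratio of cKO to Ctrl CPM (horizontal axis) in hormone-sensing cells (circles) and progenitors (squares) for 29 members with at least 100 UMIs in both kinds, with 95% counting intervals as bars and dashed lines at 1.5-fold. Col6a1 lies lowest, 20.1-fold lower in cKO hormone-sensing cells and 3.10-fold lower in cKO progenitors, and Col4a4 and Lamb1 lie highest in hormone-sensing cells.

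The endothelial class differed in makeup between the libraries. Blood endothelial cells were 404 of 508 in cKO (79.5%) and 101 of 110 in Ctrl (91.8%), and lymphatic endothelial cells 65 in cKO (12.8%) and 3 in Ctrl (2.73%). Itga2b, the alpha subunit best known from platelets, had 333 UMIs in cKO and 16 UMIs in Ctrl endothelial cells, 28.4 and 6.23 CPM, 4.55-fold higher in cKO (2.76 to 8.06). Of the cKO UMIs, 214 lay in lymphatic cells, at 315 CPM (274 to 360), and in blood endothelial cells its level was 6.86 CPM in cKO and 6.18 CPM in Ctrl. Itga9, a subunit known for its role in lymphatic valves, likewise was 1.53-fold higher in cKO over the class (1.13 to 2.13), at 181 CPM in cKO lymphatic cells, but at 13.3 CPM in cKO and 16.9 CPM in Ctrl blood endothelial cells. The higher class-wide values of both genes were not seen in blood endothelial cells alone.

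Blood endothelial cells had lower levels of several receptor subunits and matrix chains in cKO. Itgb3, which pairs with alpha V on endothelium, had 231 UMIs in cKO and 132 UMIs in Ctrl endothelial cells, 19.7 and 51.4 CPM, 2.61-fold lower (2.09 to 3.25), and was 2.92-fold lower in blood endothelial cells. Itga5 had 40.8 CPM in cKO and 78.7 CPM in Ctrl, 1.93-fold lower, and 1.99-fold lower in blood endothelial cells. Itgav had 79.6 CPM in cKO and 120 CPM in Ctrl, 1.51-fold lower, 1.47-fold lower without the cell of each library with the most of its UMIs, and 1.64-fold lower in blood endothelial cells. The subunits of the RGD-binding integrins alpha V, alpha 5 and beta 3 were thus all lower, while Itgb1 was at 332.2 CPM in cKO and 346 CPM in Ctrl. Of the matrix chains, Lamb1 had 243 UMIs in cKO and 107 UMIs in Ctrl endothelial cells, 20.7 and 41.7 CPM, 2.01-fold lower (1.59 to 2.54), and 2.95-fold lower in blood endothelial cells. Col15a1 had 126 CPM in cKO and 197 CPM in Ctrl, 1.57-fold lower, and in blood endothelial cells 142 and 209 CPM, 1.47-fold lower and so within 1.5-fold. Col13a1, a membrane-spanning collagen, was 1.86-fold lower at 13.2 CPM in cKO and 24.5 CPM in Ctrl, and Lamb2 was 1.65-fold lower. The third laminin chain past 1.5-fold, Lama3, rests on 12 UMIs in cKO and 13 UMIs in Ctrl.

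Values of this class that rest on 1 cell were set apart. Col5a2 was 2.90-fold lower in cKO endothelial cells, with 172 UMIs in cKO and 109 UMIs in Ctrl, but 54 of the Ctrl UMIs (49.5%) and 36 of the cKO UMIs came from 1 cell each, and without these it was 1.85-fold lower. Col8a1 was 1.51-fold lower with 73 of 194 cKO UMIs and 38 of 64 Ctrl UMIs in 1 cell each, and without them the levels differed by 1.02-fold. Col1a1 had 24 UMIs in cKO, 16 of them in 1 cell, and 0 UMIs in Ctrl endothelial cells. Among the 30 members measured in blood endothelial cells, 9 were lower in cKO, beside 12.6% of all genes, and 1 was higher, beside 17.7%. Their median log2 ratio was −0.39, against 0.05 over all genes.

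**Figure D5:**
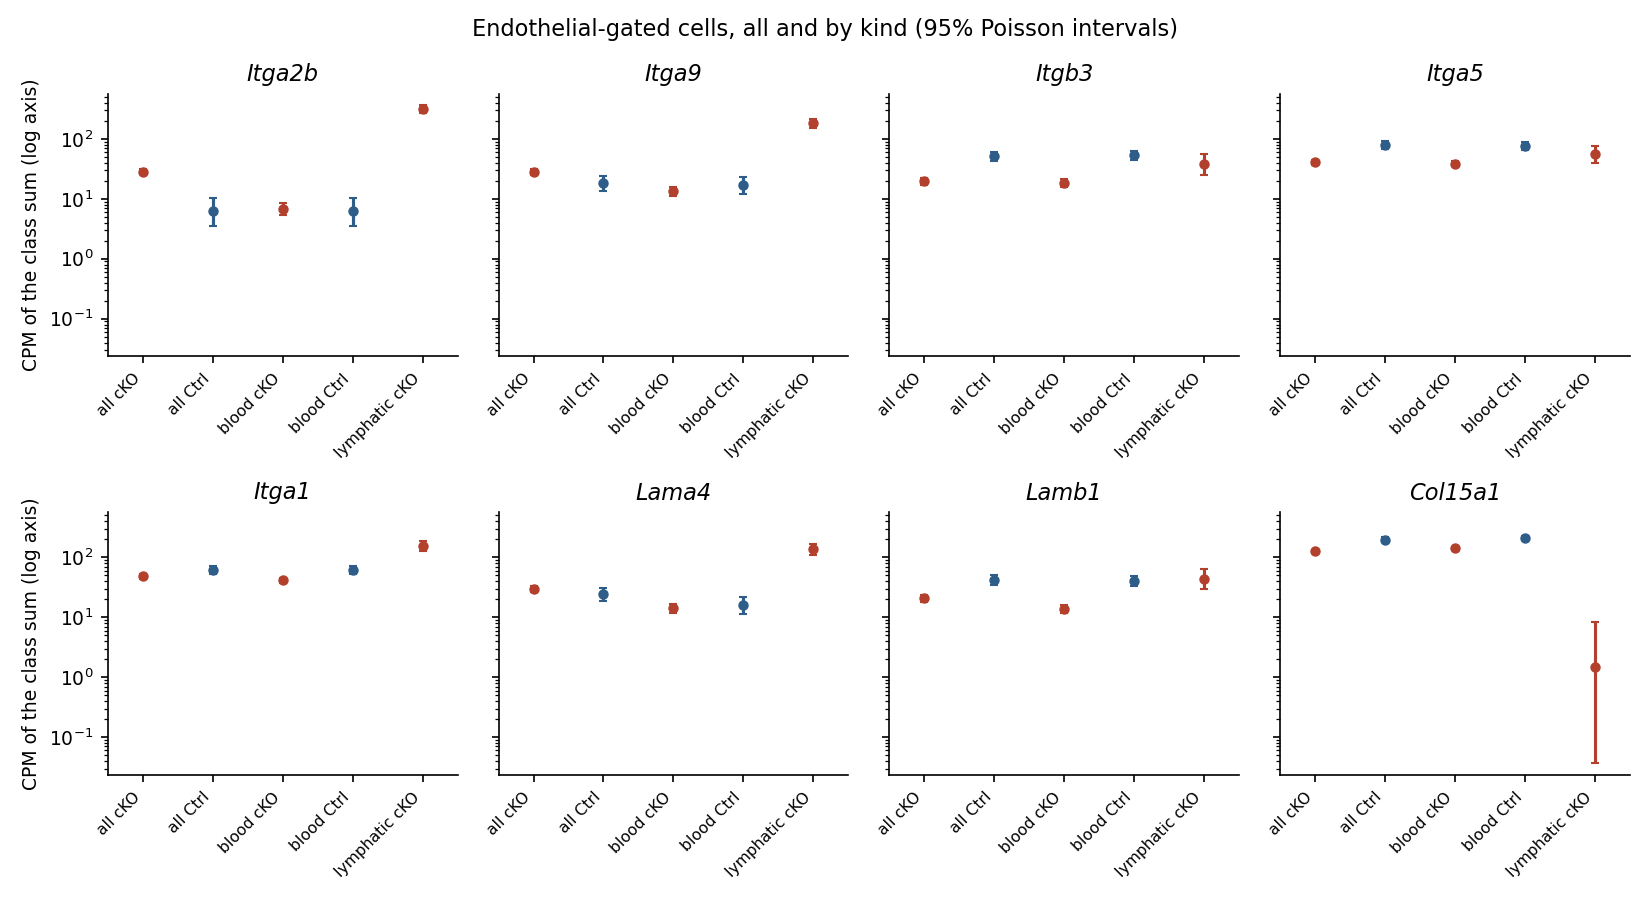
Level (CPM, log axis) of genes for integrin subunits and matrix chains in all endothelial, blood endothelial and cKO lymphatic endothelial cells, with cKO (red) left of Ctrl (blue) and 95% Poisson counting intervals as bars. Itga2b reaches 315 CPM in cKO lymphatic cells and sits at 6.86 CPM in cKO and 6.18 CPM in Ctrl blood endothelial cells, while Itgb3 is 2.92-fold lower in cKO blood endothelial cells.

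The remaining members were sparse or close in level, and are given for completeness. Col18a1, the basement membrane collagen from which endostatin is cut, had 49.1 CPM in cKO and 67.8 CPM in Ctrl basal cells, 6.72 and 7.62 CPM in luminal cells, and 97.2 and 120 CPM in endothelial cells, all within 1.5-fold. Col5a1, a chain that sets fibril width, had 36 UMIs in cKO and 103 UMIs in Ctrl basal cells, 1.79-fold lower (1.22 to 2.70), while its partner Col5a2 had 25.6 CPM in cKO and 30.7 CPM in Ctrl. Col6a4, a longer chain related to alpha 3 of collagen VI, had 8 UMIs in cKO and 58 UMIs in Ctrl basal cells, 4.55-fold lower, and 0 and 5 UMIs in luminal cells. Collagen VI chains other than Col6a3 were thus lower in cKO basal cells wherever at least 20 UMIs were seen. Col28a1, a short collagen with von Willebrand factor domains, had 2 UMIs in cKO and 28 UMIs in Ctrl luminal cells, 14.7-fold lower with an interval of 3.69 to 127. Col20a1 had 92 UMIs in cKO and 134 UMIs in Ctrl luminal cells, 1.52-fold lower, and Col8a2, the partner of Col8a1, had 45 and 20 UMIs, 2.15-fold higher (1.24 to 3.84). Col11a2 had 39 UMIs in cKO and 36 UMIs in Ctrl luminal cells. These values lie at low levels, where few UMIs set a ratio.

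Of the sparse integrin subunits, Itga7, a laminin receptor subunit best known from muscle, had 48 UMIs in cKO and 29 UMIs in Ctrl luminal cells and 7 and 17 UMIs in basal cells, with intervals that span no difference in both. Itga10, a collagen receptor subunit of cartilage, had 23 UMIs in cKO and 41 UMIs in Ctrl luminal cells. Itga11, a collagen receptor subunit of fibroblasts, had 10 UMIs in cKO and 15 UMIs in Ctrl basal cells and 1 and 2 UMIs in fibroblast-gated cells. Itga9 and Itgb5 had 13.7 and 28.4 CPM in cKO basal cells, against 11.4 and 32.5 CPM in Ctrl basal cells. Itgb3bp had 14.3 CPM in cKO and 11.2 CPM in Ctrl luminal cells, and Itgbl1 had 0 UMIs in cKO and 25 UMIs in Ctrl over all cells, 20 of them in 1 fibroblast-gated cell. The 15 members with 1 to 19 UMIs in all, for which no level is given, were Col2a1, Col4a3, Col6a5, Col6a6, Col22a1, Col24a1, Col26a1, Itga4, Itgad, Itgae, Itgax, Itgb1bp2, Itgb7, Lama2 and Lamc3. Leukocyte subunits such as Itga4, Itgax and Itgb7 were thus near the limit of detection in these sorted cells.

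Genes that work with the members were read from lists chosen for this purpose, beside the all-gene shares given above. Linker and partner proteins of the basement membrane counted 3 of 9 lower and 1 higher in cKO basal cells, with a median log2 ratio of −0.38, and 4 lower and 2 higher of 9 in luminal cells. Nid1, the nidogen that joins laminin to collagen IV, had 4.65 CPM in cKO and 12.6 CPM in Ctrl basal cells, 2.71-fold lower. In luminal cells Nid1 went the other way, at 1.37 CPM in cKO and 0.311 CPM in Ctrl, 4.42-fold higher. Fbln2, a fibulin of basement membranes, had 24.1 CPM in cKO and 56.2 CPM in Ctrl basal cells, 2.33-fold lower.

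Other matrix genes counted 4 lower and 4 higher of 11 in cKO basal cells, and 5 lower and 2 higher of 14 in luminal cells. Mgp, a matrix protein that limits calcification, had 50.03 CPM in cKO and 357 CPM in Ctrl basal cells, 7.14-fold lower, and 4.78 and 81.3 CPM in luminal cells, 17.01-fold lower. Enzymes and chaperones of collagen synthesis counted 3 lower and 0 higher of 14 in basal cells and 6 lower and 2 higher of 16 in luminal cells. Serpinh1, the collagen chaperone, had 372 CPM in cKO and 530 CPM in Ctrl basal cells, 1.43-fold lower, and P4ha2, a subunit of prolyl 4-hydroxylase, had 10.1 CPM in cKO and 29.2 CPM in Ctrl luminal cells, 2.90-fold lower. Loxl2, which crosslinks collagen, had 18 UMIs in cKO and 145 UMIs in Ctrl luminal cells, 8.43-fold lower. In luminal cells the synthesis list had a median log2 ratio of −0.43.

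Proteases and their inhibitors ran opposite in luminal cells, with 6 higher and 1 lower of 13 in cKO and a median log2 ratio of 0.58. Plau, the urokinase plasminogen activator, had 70.3 CPM in cKO and 24.8 CPM in Ctrl luminal cells, 2.83-fold higher, and Timp3, a matrix-bound inhibitor of metalloproteinases, had 19.6 and 10.3 CPM, 1.90-fold higher. Adaptors that sit on integrin tails differed little. In basal cells 1 of 16 was higher and 0 lower, and in endothelial cells 0 of 15 were past 1.5-fold. In luminal cells 1 of 18 (Parvb) was higher in cKO and 2 (Tln2 and Ptk2) were lower. The basal adaptor was Bcar1, a docking protein of focal adhesions, at 52.9 CPM in cKO and 29.6 CPM in Ctrl. Matrix receptors that are not integrins counted 2 lower and 1 higher of 11 in basal cells. Dag1, the dystroglycan receptor for laminin, had 40.1 CPM in cKO and 66.9 CPM in Ctrl, 1.67-fold lower, and Sdc1, a syndecan, had 134 and 249 CPM, 1.86-fold lower.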

How the data were processed

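The authors deposited raw UMI counts for each gene in each cell barcode, not normalized. Cell Ranger 2 and build mm10 are named in the submitters' processing notes, while the file headers record software version 3.0.0. The files held 6257 cKO barcodes with 103668011 UMIs and 4237 Ctrl barcodes with 95520633 UMIs. Nothing says whether a library holds pooled animals.

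Cells were kept if they had 500 or more detected genes and no more than 10% mitochondrial UMIs (5493 cKO and 3416 Ctrl). Scrublet (scanpy 1.11.5), told to expect 0.8% doublets per 1000 cells, called 55 cKO (1.001%) and 27 Ctrl cells (0.79%) as such, which were removed. A cell joined the class whose markers had the highest mean of log1p UMIs per 10000, with a score of at least 0.4, at least 3 markers detected and a lead of at least 0.2; the luminal and endothelial kinds needed a lead of 0.3. These thresholds were chosen with the marker scores of these cells known. Left without a class were 54 cKO and 24 Ctrl cells.

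For each library, UMIs of a class were added up and scaled to CPM. Ratios of cKO to Ctrl carry exact conditional binomial intervals, levels exact Poisson intervals and shares Clopper-Pearson intervals, all at 95%. A gene was counted as higher or lower past 1.5-fold with at least 20 UMIs over both libraries, or 50 for genes of the related lists. Classes needed at least 50 cells per library. Fibroblast-gated and lymphatic cells were therefore not compared. The counting was tested on simulated data. Immune-gated cells, meant as the background class, were 1 per library, so endothelial cells took their place.

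The members and lists were chosen with earlier results of these data known. Named members with at least 100 UMIs were the 8 highest, the 8 lowest and the 8 most abundant per class, the 4 per class farthest above the next class, and a fixed list of chains and subunits; others were named after their values were seen. The values of 1 member are not reported here, though it is counted in the totals. Sequences were matched by symbol to RefSeq, where 62 of 86 members had a promoter window, and 3′ untranslated regions came from GENCODE M21. Leaving out the cell with the most UMIs of a member, or of Col1a1 in fibroblast-gated cells, was an alternative chosen after seeing the data.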

Additional observations from a re-analysis of the deposited data

Results flagged for a closer look

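Lamb1 differed between the libraries in opposite directions in 2 cell classes. Its log2 ratio of cKO to Ctrl was 0.70 in luminal cells and −1.01 in endothelial cells. With 1 library per group the difference between the classes was not tested.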

How the results depend on the processing

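No paired analysis was possible because each group had 1 library. Of the summary values under alternative settings, 85 kept their value within the spread used, 38 moved and 1 reversed; of the values of single members, 561 kept it, 57 moved and 5 reversed. Brackets in the counts that follow hold the share of all genes in the same setting. For basal cells, the members higher in cKO were 5 as reported. They were 3 of 39 without cells that held at least 3 markers of another class (10.0%) and 3 of 40 with a minimum of 100 UMIs (5.96%). With 1 UMI they were 13 of 68 (23.5%), and at 2-fold 1 of 56 (3.42%). The members lower, 22 as reported, were 14 of 40 with 100 UMIs (5.71%) and 11 of 56 at 2-fold (3.32%). After thinning to 1000 UMIs they were 6 of 33 (9.45%), and the median log2 ratio turned to 0.013. For luminal cells, the 10 higher were 2 of 43 with 100 UMIs (9.28%) and 6 of 59 at 2-fold (7.76%). They were 4 of 28 after thinning (9.96%) and 2 of 49 in progenitors alone (8.06%). The 21 lower were 11 of 59 at 2-fold (6.11%) and 7 of 28 after thinning (15.8%). The luminal median of −0.28 was −0.39 with 100 UMIs and −0.11 after thinning. For endothelial cells, the 3 higher were 5 under the stricter cell filter, 5 without cells holding other markers, 1 at 2-fold and 1 in blood cells alone; the 11 lower were 32 with 1 UMI, 4 at 2-fold and 4 after thinning. The endothelial median of −0.38 was −0.48 under a stricter gate, −0.18 with each cell weighted alike, −0.56 with 1 UMI, −0.017 after thinning and −0.22 without the top cells. Fewer members passed the minimum after thinning (33 basal, 28 luminal, 14 endothelial); the cause of the other shifts was not tested. Reversed single values were basal Col1a2 at 1.47 and endothelial Col1a1 at −3.42 without cells holding other markers, endothelial Col8a1 at 0.77 under the stricter cell filter and 0.026 without its top cells, and endothelial Col1a1 at −0.78 without its top cells. Shares with a UMI moved with depth: luminal Col6a1 was 0.907% in cKO unthinned, and in Ctrl 1.39% at 2000 UMIs and 15.5% unthinned. Basal Col9a2 was 13.3% in cKO and 28.5% in Ctrl at 2000 UMIs, and 38.1% and 74.1% unthinned; basal Itgb1 was 68.1% and 58.9% at 2000 UMIs, and 94.3% and 92.4% unthinned. Scaling by TMM factors moved the luminal all-gene median by 0.10, and its split of higher and lower calls to 14.7% and 12.7%. Lymphatic cells alone and all fibroblast ratios were not run because of too few cells.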
